A study of Mus musculus with 42 samples.

Results

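The genes described here are 10 members of the Hippo pathway and of the Tead transcription complex: the coactivators *Yap1* and *Wwtr1* (which encodes TAZ), the DNA-binding factors *Tead1*, *Tead2*, *Tead3* and *Tead4*, the angiomotin-like genes *Amotl1* and *Amotl2*, the kinase gene *Lats2* and the Tead cofactor gene *Vgll3*. They were chosen by name, and found by matching the Ensembl identifiers of the count table to mouse gene symbols. All 10 were found among 56953 genes, and all 10 passed the filter on low counts. Their right over left ratios in heterotaxy embryos were in view when the list was drawn up, so those ratios are a description and carry no test.

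The libraries came from the left and right sides of the heart field of 21 mouse embryos at stage E8.5i, microdissected without the heart tube, 42 libraries in all. There were 5 wild types (Ccdc40+/+) with rightward heart looping, 11 mutants (Ccdc40lnks/lnks) with rightward looping and 5 mutants (Ccdc40lnks/lnks) with inverted looping. *Ccdc40* is needed for motile cilia, and the lnks mutants lack the leftward fluid flow of the embryonic node. The mutation is in every cell (on a background that the study's methods spell C56Bl6J), so no group is tissue specific, and each group held both sexes.

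The study further divided the rightward mutants by the asymmetry of 25 marker genes in these same libraries, none of which is among the 10. A cluster of 6 embryos (3_7, 15_5, 18_1, 19_4, 23_3 and 32_3) was assigned to heterotaxy, in which organ sides are discordant. The other 5 (1_6, 2_2, 17_1, 19_6 and 22_1), called here the other rightward mutants, clustered with the wild types as situs solitus, the normal arrangement, and the 5 inverted mutants formed situs inversus totalis, the mirror image. The clusters were drawn from ratios in the same libraries and are not in the sample labels, and the embryos of each were read from their names in a heatmap of the study, which the labels cannot check. Every value of the heterotaxy cluster rests on that reading, so that it and the other rightward mutants are described below by their values, with no p.

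In GRCm39 the genes lay at chr9:7932000-8004661 (*Yap1*, - strand), chr3:57363067-57483331 (*Wwtr1*, -), chr7:112278522-112506014 (*Tead1*, +), chr7:44865172-44883071 (*Tead2*, +), chr17:28550645-28569791 (*Tead3*, -), chr6:128201251-128277786 (*Tead4*, -), chr9:14453262-14556352 (*Amotl1*, -), chr9:102593836-102610617 (*Amotl2*, +), chr14:57926960-57995845 (*Lats2*, -) and chr16:65611923-65663369 (*Vgll3*, +). Exons of *Yap1*, *Tead2* and *Lats2* overlap those of other genes, of which the most abundant one counted held 660 counts over all libraries (*Cd37*, beside 905492 for *Tead2*).

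Library totals ran from 36073684 to 62970327 counts (median 43458644). The mutated gene was between 15.4 and 26.3 CPM, counts scaled to the size of the library, in the wild types and between 8.88 and 14.6 CPM in the mutants, without overlap. In whole tissue, fewer cells that express a gene and less RNA per cell cannot be told apart.

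In the Hippo pathway, a kinase cascade that ends in the LATS kinases phosphorylates YAP and TAZ and keeps them out of the nucleus. When the kinases are idle, YAP and TAZ enter the nucleus and bind TEAD factors, which hold the DNA, and switch on genes of growth and cytoskeletal tension, among them *Amotl2* and *Lats2*, which feed back on the pathway. Angiomotin-like proteins hold YAP at cell junctions, and vestigial-like (VGLL) proteins bind TEAD at a surface that overlaps the one used by YAP. The pathway is known in the heart for its part in the growth of muscle and the epicardium.

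TEAD factors recognise the core GGAATG, or CATTCC on the other strand. In windows from 250 bases before to 50 after the canonical transcription start, this core was present at 5 of the 10 genes (*Amotl2*, *Tead1*, *Tead3*, *Wwtr1* and *Yap1*), against 2979 of 21247 promoters of protein-coding genes (14.0%). *Tead1* had 3 matches, *Amotl2* had 2, and the other 3 genes had 1 each. The 250 bases before the start are shown for *Amotl2*, with 2 cores, and *Vgll3*, with none, 5′ to 3′ on the coding strand (GRCm39, + strand in both), with TEAD cores in capitals.

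Amotl2, chr9:102594617-102594866: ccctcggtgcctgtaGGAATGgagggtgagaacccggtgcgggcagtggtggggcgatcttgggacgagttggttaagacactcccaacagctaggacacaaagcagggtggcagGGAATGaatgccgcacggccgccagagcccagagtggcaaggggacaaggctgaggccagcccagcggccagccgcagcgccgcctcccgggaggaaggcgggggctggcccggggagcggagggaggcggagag

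Vgll3, chr16:65611673-65611922: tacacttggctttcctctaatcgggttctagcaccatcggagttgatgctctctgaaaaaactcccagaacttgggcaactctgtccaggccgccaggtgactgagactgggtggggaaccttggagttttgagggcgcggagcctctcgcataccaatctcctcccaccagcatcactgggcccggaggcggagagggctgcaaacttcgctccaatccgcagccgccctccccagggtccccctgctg

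The cores of *Amotl2* began at positions -235 and -135 from its start, where the first transcribed base is 1. A match is a run of letters and was not tested for binding.

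The 10 genes differed widely in level. Per kilobase of exon, *Tead2* was the most abundant, with a median of 89.4 CPM per kb over the 42 libraries (77.4 to 95.4), and it made up between 88.9 and 93.6% of the summed *Tead* level (median 91.3%). *Tead1* followed with a median of 4.31 CPM per kb, and *Tead4* and *Tead3* with 2.34 and 1.95. *Tead2* was above *Tead1* and *Tead1* above *Tead4* in 42 of 42 libraries, whereas *Tead3* was above *Tead4* in 12 of 42, so that order was not fixed.

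Among the proteins that act on YAP, *Amotl2* (median 20.7 CPM per kb) was above *Amotl1* (13.4) in 42 of 42 libraries, and both were above *Yap1* (5.71), which was itself above *Wwtr1* (2.20) in 42 of 42. The exon length of a gene joins all its annotated exons, 7060 bases for *Amotl2* and 10092 for *Amotl1*. The order of *Amotl2* and *Amotl1* in every library rests on that divisor. In CPM their medians were 146 and 136. *Amotl1* was the higher in some libraries, such as the left sample of 10_1 (148 against 130.5 CPM). *Lats2* had a median of 1.37 CPM per kb. *Vgll3* was the lowest of the 10, at 0.474 CPM per kb, below its relative *Vgll4* (16.2) and near *Vgll2* (0.581), while *Vgll1* was barely detected at 0.0450.

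The genes also differed in their spread between libraries. *Tead2* varied by 1.23-fold from the lowest to the highest library, *Amotl1* by 1.34-fold and *Amotl2* by 1.51-fold. *Vgll3* varied by 242-fold, from 0.197 CPM (9 counts, the right sample of embryo 2_2) to 47.6 CPM (1979 counts, the right sample of embryo 15_5).

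**Figure D1:**
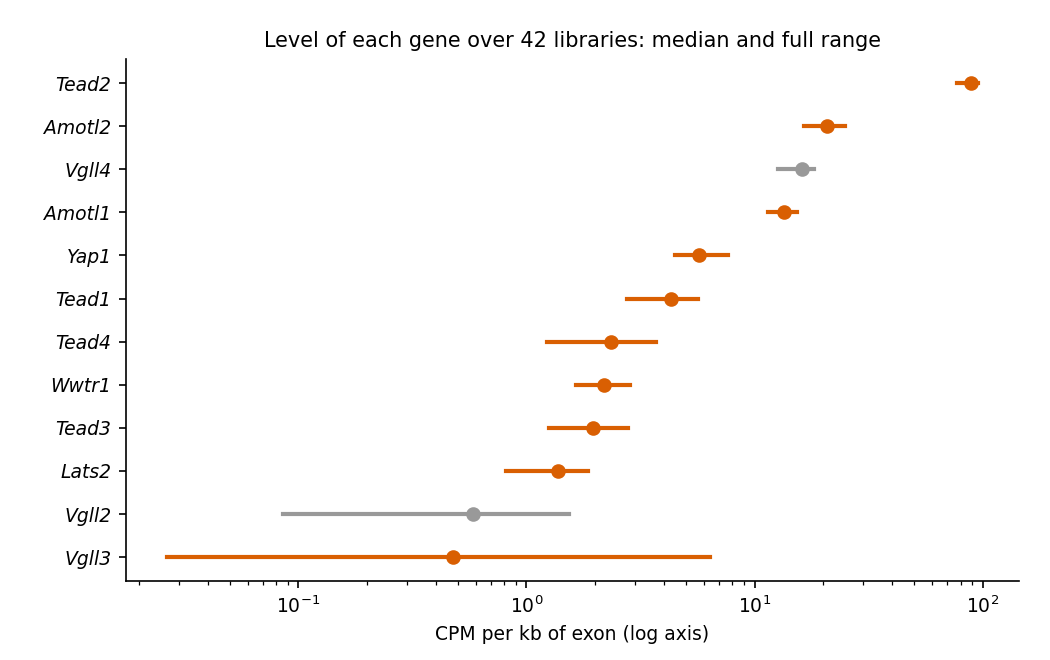
Level of the 10 genes (orange) and of the related cofactor genes *Vgll4* and *Vgll2* (grey) in CPM per kb of exon on a log axis, with the median as a point and the full range over 42 libraries as a line. *Tead2* stands highest, at a median of 89.4, and *Vgll3* has the longest range.

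In the heterotaxy cluster, *Vgll3* was higher on the right in 6 of 6 embryos. The left samples ran from 2.14 to 37.7 CPM (median 3.83) and the right samples from 3.89 to 47.6 CPM (median 7.39). The log2 ratio, right over left, was 0.88 in embryo 18_1, 0.85 in 19_4, 1.01 in 23_3, 0.76 in 3_7, 1.12 in 32_3 and 0.34 in 15_5. The ratio was smallest in 15_5, whose level on either side was far above that of the other 5 embryos. The mean was 0.83 ± 0.27 (SD, n = 6) and the fitted log2 fold change of edgeR, paired by embryo, was 0.80 (SE 0.11). In 15_5 the summed sinus venosus and proepicardium markers were at 121 CPM on the left and 177 on the right. The latter was their highest sum of the 42 libraries, and their part was not tested.

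The wild types showed the opposite side. *Vgll3* was higher on the left in 5 of 5 wild types, with left samples at 8.03, 10.8, 43.0, 4.64 and 4.66 CPM and right samples at 3.12, 5.002, 3.20, 2.97 and 2.21 CPM (embryos 10_1, 17_7, 22_4, 7_1 and 8_1). The log2 ratios were -1.35, -1.10, -3.73, -0.63 and -1.06, a mean of -1.58 ± 1.23 (SD, n = 5). The left sample of 22_4 stood apart from the other wild types, and the right samples lay close together. In 22_4 the summed yolk sac markers were at 606 CPM (left) and 605 CPM (right), and the heart muscle markers at 1232 and 2451 CPM. Its neural crest markers, at 254 CPM on the left and 122 on the other side (log2 ratio -1.05), had their highest sum of the 42 libraries in that left sample, and their part was not tested.

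The left excess of *Vgll3* in the wild types was not called across all genes. By the quasi-likelihood test of edgeR the log2 fold change was -1.53 (SE 0.42), with a p of 0.00693 unadjusted and of 1 after Benjamini-Hochberg adjustment. The exact sign-flip test gave a two-sided p of 0.0625, the smallest that 5 embryos allow. Without the embryo 22_4, the log2 fold change was -1.04 (SE 0.17).

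In the other rightward mutants, *Vgll3* was higher on the left in 4 of 5 embryos. The left samples had 1.80, 4.02, 4.04, 3.95 and 2.98 CPM, and the right samples 0.849, 2.98, 3.10, 0.197 and 3.29 CPM (embryos 1_6, 17_1, 19_6, 2_2 and 22_1). The log2 ratios were -1.04, -0.43, -0.38, -4.05 and 0.14, so that embryo 22_1 was near balance and 2_2 had 9 counts of *Vgll3* on the right. In 2_2 the summed heart muscle markers were also lower on the right (208 against 709 CPM), as were the second heart field markers (295 against 455 CPM) and primitive blood markers (384 against 691 CPM). Its yolk sac markers (26.1 CPM on the left, 10.9 on the right) and its sinus venosus and proepicardium markers (40.6 and 22.5 CPM) had their lowest sums of the 42 libraries in these samples, both lower on the right, so that 2_2 stood apart in several tissues, whose part in the ratio was not tested. The fitted log2 fold change was -0.95 (SE 0.51), and -0.40 (SE 0.21) without 2_2.

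**Figure D2:**
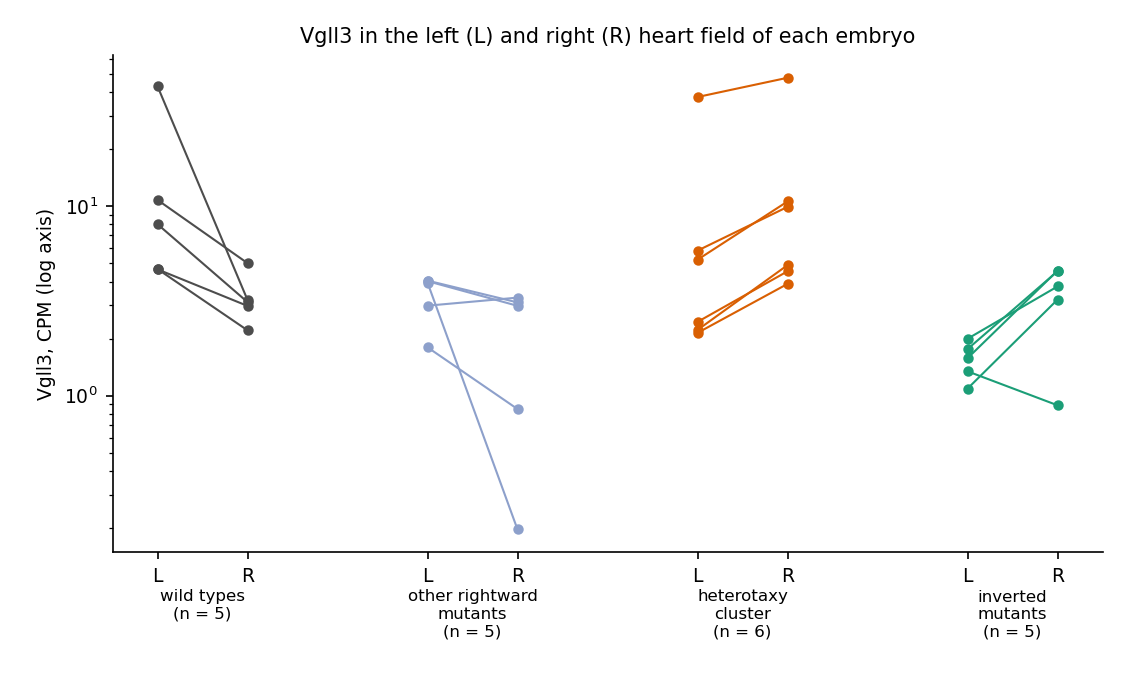
*Vgll3* in CPM, on a log axis, in the left (L) and right (R) sample of each embryo, with a line joining both. The lines fall from left to right in 5 of 5 wild types and 4 of 5 other rightward mutants, and rise in 6 of 6 embryos of the heterotaxy cluster and 4 of 5 inverted mutants.

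All 6 ratios of the heterotaxy cluster lay above the 10 ratios of the wild types and other rightward mutants, of which the highest was 0.14. *Vgll3* was the only one of the 10 genes without overlap in this comparison, and 0.0281% of 28483 genes (8 genes) lay above in the same way. None of the 10 lay below them in all 6 embryos (0 of 10), where 0.00351% of all genes did. Against the wild types alone it was again 1 of 10 genes, with 0.270% of all genes, and against the other rightward mutants alone 1 of 10, with 0.516%. These counts rest on the values with which the genes were chosen.

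In the inverted mutants, *Vgll3* was higher on the right in 4 of 5 embryos. The left samples had 1.76, 1.57, 1.99, 1.09 and 1.34 CPM and the right samples 4.53, 4.56, 3.77, 3.21 and 0.889 CPM (embryos 10_3, 18_2, 2_7, 32_2 and 4_6). The log2 ratios were 1.34, 1.51, 0.90, 1.52 and -0.57, so that embryo 4_6 went the other way from the other 4. The log2 fold change was 1.00 (SE 0.30), with an adjusted p of 0.166 by edgeR and 0.00479 by DESeq2. Each embryo was left out in turn, and the adjusted p by edgeR was between 0.263 and 0.486 in 4 of these fits. In the fit without 4_6, the embryo with the opposite sign, the log2 fold change was 1.32 (SE 0.18, adjusted p = 0.0292), a value that depends on leaving out that embryo, in a fit that called 0.819% of all genes.

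The difference in the asymmetry of *Vgll3* between inverted mutants and wild types was 2.54 on the log2 scale (SE 0.71), with an adjusted p of 0.105 by edgeR and 0.0242 by DESeq2. The exact permutation test of the 5 against 5 embryo ratios, chosen after the values were seen, gave a two-sided p of 0.00794, the smallest these numbers allow. The inverted ratios all lay above those of the wild types by a small margin (-0.57 against -0.63 at the edge), as did those of 1.30% of all genes. Between inverted and rightward mutants the difference was 0.90 (SE 0.60, adjusted p = 0.671 by edgeR), and between rightward mutants and wild types 1.64 (SE 0.60, adjusted p = 1 by edgeR). Both rest in part on the 6 heterotaxy embryos.

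The level of *Vgll3* by side was also compared, where the rightward mutants include the heterotaxy embryos. On the left, the log2 difference of inverted from rightward mutants was -1.90 (SE 0.68), with an adjusted p of 0.497 by edgeR with sex in the model. The heterotaxy embryo 15_5, at 37.7 CPM on the left where the other 10 rightward mutants had at most 5.82 CPM, weighed heavily on it, and without 15_5 the difference was -1.17 (SE 0.45, adjusted p = 0.556 by edgeR). On the right, the difference of inverted from rightward mutants was -1.11 (adjusted p = 0.9993 by edgeR). It lay between -1.33 and -0.39 with each embryo left out in turn. For rightward mutants against wild types the log2 difference was -0.84 on the left (SE 0.60) and 1.45 on the right (SE 0.75), with adjusted p of 0.978 and 1 by edgeR. Without the wild type 22_4, the difference on the left was 0.0031 (SE 0.59). Without 15_5 it was -1.89 (SE 0.44), and the difference on the right fell to 0.47 (SE 0.57).

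*Amotl2*, whose product holds YAP at junctions and which is itself a YAP target, was higher on the right in 6 of 6 embryos of the heterotaxy cluster. The left samples ran from 125 to 160 CPM (median 136) and the right samples from 151 to 176 CPM (median 159), and the sides overlapped across embryos. The log2 ratios were 0.31 in 15_5, 0.26 in 18_1, 0.22 in 19_4, 0.24 in 23_3, 0.13 in 3_7 and 0.13 in 32_3. Their mean was 0.21 ± 0.07 (SD, n = 6), and the fitted log2 fold change was 0.20 (SE 0.04).

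In the other groups *Amotl2* had no common side. The wild types had log2 ratios of -0.17, -0.04, 0.17, 0.00 and 0.27, the other rightward mutants 0.14, -0.07, 0.17, -0.07 and -0.07, and the inverted mutants -0.07, 0.24, -0.05, -0.06 and -0.34. The highest of these, 0.27 and 0.24, lay within the range of the heterotaxy cluster, so the groups overlapped. Over all 11 rightward mutants the log2 fold change of *Amotl2* was 0.13 (SE 0.04), and 8 were higher on the right. The 6 heterotaxy embryos were among these 8, so no p is given for it, while the other 5 had a mean of 0.02 ± 0.12 (SD, n = 5) with 2 of 5 higher on the right.

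*Amotl1*, its close relative, was higher on the right in 6 of 6 heterotaxy embryos by a small amount. Its log2 ratio ran from 0.01 to 0.12 (mean 0.07 ± 0.05, SD, n = 6), with left samples from 119 to 146 CPM and right samples from 130 to 151 CPM. It was also higher on the right in 4 of 5 other rightward mutants and 4 of 5 inverted mutants, and in 2 of 5 wild types. Over the 11 rightward mutants, which include the 6, it had a log2 fold change of 0.05 (SE 0.02).

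*Lats2*, the kinase that phosphorylates YAP and TAZ and a YAP target too, was higher on the right in 6 of 6 heterotaxy embryos, unevenly. The log2 ratios were 0.78 in 19_4, 0.51 in 32_3 and 0.50 in 18_1, and between 0.04 and 0.07 in 15_5, 23_3 and 3_7. The mean was 0.33 ± 0.31 (SD, n = 6) and the fitted log2 fold change 0.31 (SE 0.11). The left samples ran from 11.4 to 15.3 CPM (median 13.0) and the right samples from 14.0 to 19.6 CPM (median 16.7). In the wild types the log2 ratios were -0.98, -0.24, 0.11, -0.37 and 0.16, and in the inverted mutants 0.29, -0.12, 0.33, 0.25 and -0.55, so that both signs occurred in each. In 19_4, which also had the highest heterotaxy ratios of *Tead1* (0.55) and *Tead3* (0.41), the sides differed in tissue markers. Heart muscle markers were at 885 CPM on the left and 2444 on the right, and second heart field markers at 232 and 437 CPM. Paraxial mesoderm markers were lower on the right, at 170 and 73.8 CPM. The part of these tissues was not tested.

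Of the coactivators, *Wwtr1* was higher on the right in 6 of 6 heterotaxy embryos. Its log2 ratio ran from 0.02 to 0.29 (mean 0.14 ± 0.11, SD, n = 6), with a median of 24.5 CPM in left samples and 26.7 in right samples. The wild types had a mean of 0.29 ± 0.26 (SD, n = 5), right higher in 4 of 5, and a log2 fold change of 0.30 (SE 0.11, unadjusted p = 0.0252, adjusted p = 1 by edgeR). The inverted mutants had a mean of -0.06 ± 0.09 (SD, n = 5), right higher in 1 of 5. The difference in the asymmetry of *Wwtr1* between inverted mutants and wild types was -0.37 (SE 0.13, unadjusted p = 0.00772, adjusted p = 0.195 by edgeR), and the exact permutation test gave a two-sided p of 0.0238.

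*Yap1*, the main coactivator of the pathway, had no side shared by every embryo in any group, although 5 of 6 heterotaxy embryos were higher on the right. The heterotaxy left samples ran from 44.1 to 55.9 CPM and the right samples from 42.2 to 71.3 CPM, with a mean log2 ratio of 0.06 ± 0.20 (SD, n = 6). The mean was 0.00 ± 0.21 in the wild types, -0.14 ± 0.23 in the other rightward mutants and -0.09 ± 0.19 in the inverted mutants (SD, n = 5 each).

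Among the DNA-binding factors, *Tead4* was higher on the right in 6 of 6 heterotaxy embryos and 4 of 5 inverted mutants, and higher on the left in 4 of 5 wild types and 4 of 5 other rightward mutants. The heterotaxy log2 ratios ran from 0.02 to 0.32 (mean 0.17 ± 0.11, SD, n = 6), with a median of 14.1 CPM in left samples and 15.6 in right samples. The wild types had log2 ratios of -0.92, -0.37, 0.12, -0.06 and -0.01. The inverted mutants had 0.39, 0.65, 0.27, 0.38 and -0.07, where the value below 0 was again that of embryo 4_6. The lowest wild-type value was that of 10_1, whose ratios of *Lats2* (-0.98) and *Tead3* (-0.77) were also the lowest of the wild types. In its right sample the heart muscle markers (594 against 1944 CPM) and yolk sac markers (57.6 against 605 CPM) were below the left. The neural tube markers (197 against 69.4 CPM) and paraxial mesoderm markers (310 against 134 CPM) were above it, each at their highest sum of the 42 libraries, and the part of these tissues was not tested.

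For *Tead4* the log2 fold change in the inverted mutants was 0.31 (SE 0.11, unadjusted p = 0.0225, adjusted p = 0.249 by edgeR). The difference of its asymmetry from that of the wild types was 0.55 (SE 0.18), with an adjusted p of 0.177 by edgeR and 0.0468 by DESeq2, and an exact permutation p of 0.0317, two-sided. The log2 difference of its left level, inverted against rightward mutants, was -0.30 (SE 0.12, adjusted p = 0.534 by edgeR), a value that rests in part on the heterotaxy embryos.

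The other *Tead* genes were less uniform. Among heterotaxy embryos, *Tead1* had a mean log2 ratio of 0.18 ± 0.22, *Tead3* of 0.19 ± 0.22 and *Tead2* of 0.04 ± 0.03 (SD, n = 6 each), each higher on the right in 5 of 6 embryos. *Tead1* was higher on the left in 4 of 5 other rightward mutants, with a mean of -0.21 ± 0.26 (SD, n = 5), and of -0.11 ± 0.16 (SD, n = 4) without 2_2. Its heterotaxy mean was 0.10 without 19_4. *Tead2* stayed within -0.22 and 0.18 in all 21 embryos, the narrowest band of the 10 genes, and its mean was at most 0.04 in any group.

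**Figure D3:**
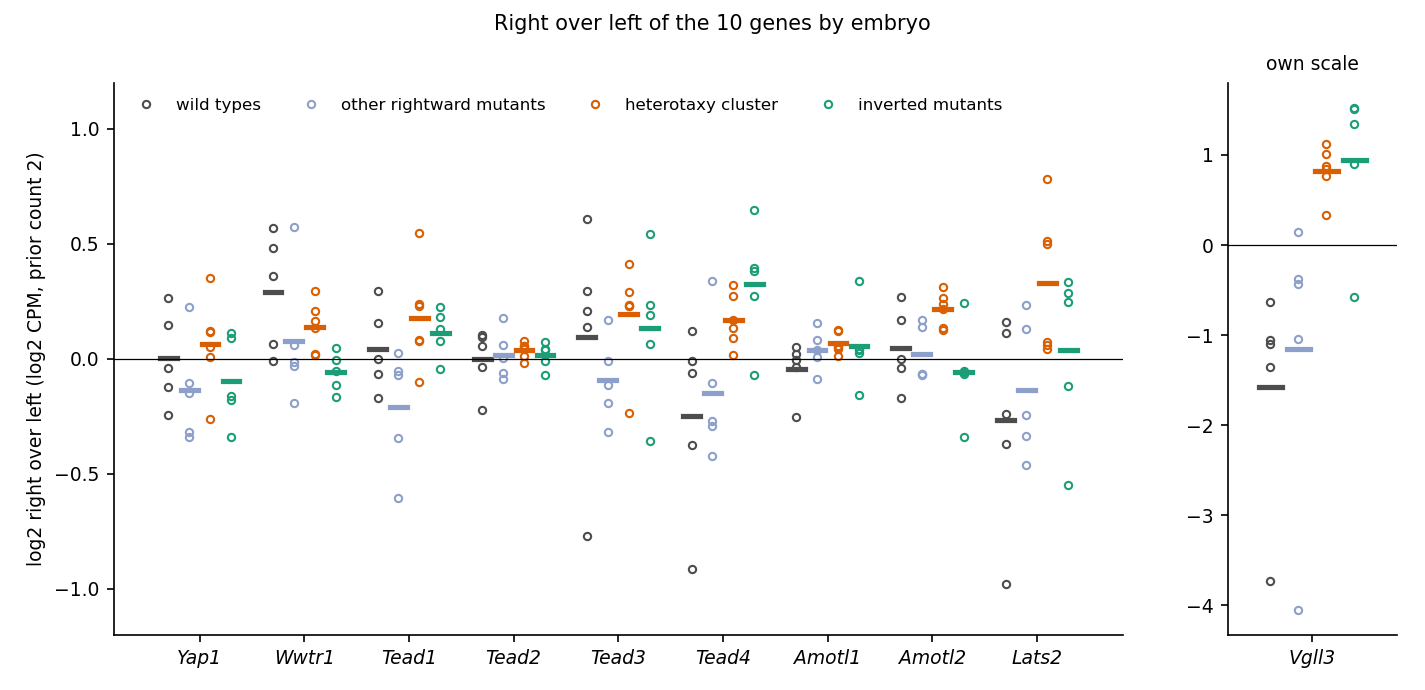
Log2 ratio, right over left, of log2 CPM with a prior count of 2, for each embryo (circles) and the mean of each group (bars), with *Vgll3* on its own scale. The heterotaxy circles (orange) all lie above 0 for *Wwtr1*, *Tead4*, *Amotl1*, *Amotl2*, *Lats2* and *Vgll3*.

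**Figure D4:**
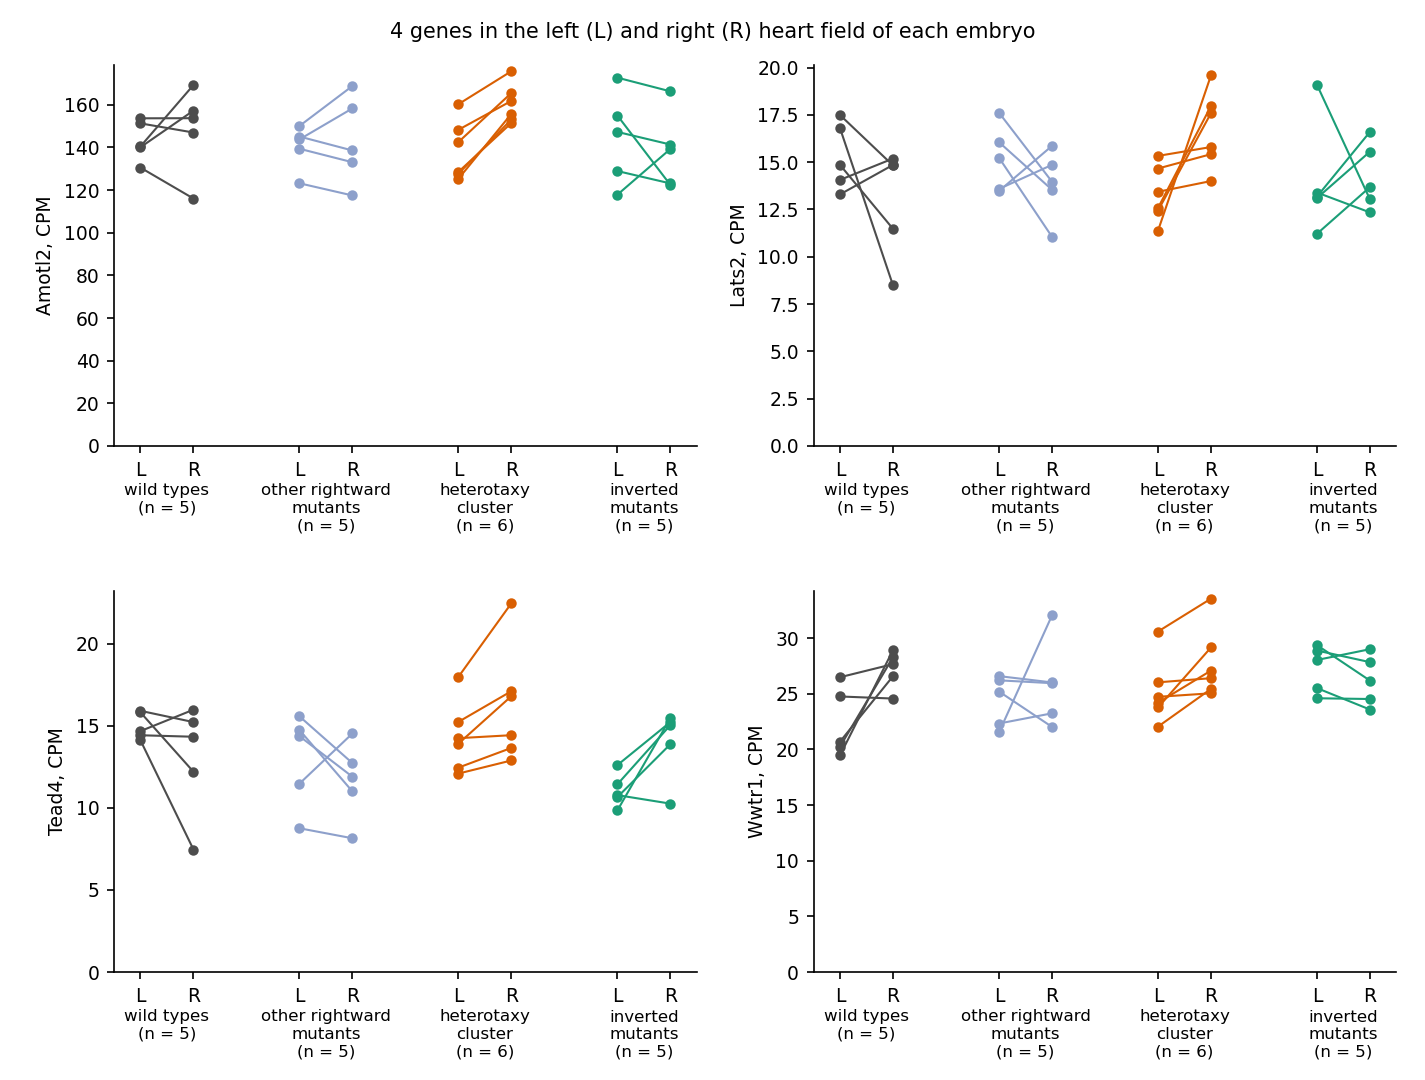
*Amotl2*, *Lats2*, *Tead4* and *Wwtr1* in CPM, from 0, in the left (L) and right (R) sample of each embryo, with a line joining the samples. All 6 lines of the heterotaxy cluster rise in each panel, while the other groups hold lines of both directions.

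Counted together, 6 of the 10 genes were higher on the right in every heterotaxy embryo (*Wwtr1*, *Tead4*, *Amotl1*, *Amotl2*, *Lats2* and *Vgll3*) and 0 on the left in every one, where 2.06% of 28483 genes were on the right and 1.30% on the left in all 6. The means of all 10 genes were above 0, with a median of 0.17 against 0.012 for all genes. These numbers describe values that were known when the genes were chosen, so nothing is read from them. Without the embryo 15_5, 8 of the 10 were on the right in each of the other 5 (all but *Tead1* and *Tead3*), where 6.0% of all genes were. In the wild types 1 gene, *Vgll3*, was on the left in every embryo, where 2.49% of genes were, and 0 on the right, where 2.37% were. In the other rightward mutants, the inverted mutants and the 11 rightward mutants together, 0 of the 10 genes had 1 side in every embryo. Of all genes, 3.22% were on the right and 3.96% on the left in every one of the other rightward mutants, 7.34% and 5.99% in the inverted mutants, and 0.0281% and 0.0702% in the 11. Without 22_4, *Tead4* joined *Vgll3* on the left in the 4 remaining wild types (6.64% of all genes), and without 2_2, *Tead4* was on the left in the 4 remaining other rightward mutants (6.73%).

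By embryo, all 10 genes were higher on the right in 18_1, 19_4, 23_3 and 32_3, and 8 of 10 in 15_5 and 3_7, while between 48.5 and 52.9% of all genes were higher on the right in these 6 embryos. In 15_5 the exceptions were *Yap1* and *Tead2* and in 3_7 they were *Tead1* and *Tead3*. In the wild types between 2 and 7 of the 10 were higher on the right, beside 44.8 to 51.3% of all genes. The other rightward mutants had between 0 and 6, beside 45.6 to 50.9%, and the inverted mutants between 2 and 8, beside 47.4 to 51.1%. The embryo with 0 was 17_1, and the inverted embryo with 2 was 4_6.

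At an adjusted p under 0.05 by edgeR, 0 of the 10 genes were called in any comparison of the labelled groups. Between right and left, 0 of 25765 genes were called in the wild types (0%), 0.0219% in the rightward mutants and 1.81% in the inverted mutants. At an unadjusted p under 0.05, *Wwtr1* (right) and *Vgll3* (left) passed in the wild types, and *Tead4* and *Vgll3* (right) in the inverted mutants, where 2.75% and 14.0% of all genes did. As a description, the fit of the heterotaxy cluster passed 0.00383% of all genes by edgeR and 0.333% by DESeq2. That of the other rightward mutants passed 0% by edgeR and 0.754% by DESeq2. DESeq2 called 0, 0 and 1 (*Vgll3*) of the 10 at an adjusted p under 0.05 in the wild types, rightward mutants and inverted mutants. It called 0.0815%, 0.113% and 6.88% of all genes there. The 11 rightward mutants hold the 6 heterotaxy embryos, so every comparison with rightward mutants rests in part on values that were known when the genes were chosen. For these comparisons no unadjusted p, and no count at an unadjusted p, is given.

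Between groups, the asymmetry of 0 of the 10 genes differed by edgeR at an adjusted p under 0.05, where 0.270% of 28483 genes differed between inverted and rightward mutants, 0% between rightward mutants and wild types, and 0.477% between inverted mutants and wild types. At an unadjusted p under 0.05 there were 3 of the 10 in the third (*Wwtr1*, *Tead4* and *Vgll3*, 12.6% of all genes). DESeq2 called 0, 0 and 2 (*Tead4* and *Vgll3*), with 1.60%, 0% and 3.18% of all genes. The levels on either side gave 0 of 10 by either tool at an adjusted p under 0.05. For rightward mutants against wild types, edgeR called 0.0230% of all genes on the left and 0.0115% on the right, and DESeq2 0.0766% and 0.0306%. For inverted against rightward mutants, edgeR called 0.0115% and 0.00765%, and DESeq2 0.398% and 0.0726%.

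The other core genes of the pathway were read from a list of 20 upstream genes (kinases, scaffolds and their regulators), all tested. By edgeR, 0 of 20 were called right over left in any group of the labels, and the median log2 fold change was 0.01 in the wild types and 0.02 in the inverted mutants. In the heterotaxy cluster 11 of the 20 means were above 0 and 9 below, with a median of 0.0077 against 0.012 for all genes, while the median of the fitted log2 fold changes was below 0 (-0.011 against -0.0047). The largest means were those of *Wwc2* (0.31 ± 0.37) and *Ajuba* (0.20 ± 0.19), which encode a scaffold that activates LATS and a LIM protein that restrains it. The smallest were those of *Fat4*, a giant cadherin upstream of the pathway (-0.33 ± 0.35), and *Mob1b*, a LATS cofactor (-0.20 ± 0.27, SD, n = 6 each). *Wwc2* alone of the 20 was on 1 side, the right, in all 6 embryos, where 2.06% of all genes were.

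*Taok3*, a kinase of the family that activates the cascade, was the only upstream gene that edgeR called in a comparison between groups. It was higher on the left in 5 of 5 wild types (mean log2 ratio -0.58 ± 0.42, SD, n = 5) and higher on the right in 5 of 5 inverted mutants (0.47 ± 0.27, SD, n = 5). The asymmetry differed by 1.04 (SE 0.16, adjusted p = 0.00666 by edgeR), in a comparison chosen after the values were seen. EdgeR called 0.477% of all genes there. DESeq2 called 3 of the 20 (*Mob1b*, *Frmd6* and *Taok3*), beside 3.18% of all genes, and 4 right over left in the inverted mutants (*Mob1b*, *Wwc2*, *Taok3* and *Amot*), beside 6.88%. Its heterotaxy mean was -0.08 ± 0.17 (SD, n = 6).

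Of the related cofactors, *Vgll4*, a TEAD cofactor that opposes YAP, was higher on the right in 5 of 5 wild types (mean log2 ratio 0.14 ± 0.06, SD, n = 5) and had a mean of 0.04 ± 0.09 in the heterotaxy cluster (SD, n = 6). *Vgll2* and *Vgll1* had heterotaxy means of 0.30 ± 1.21 and 0.35 ± 1.26 (SD, n = 6 each), with both signs among the embryos. By edgeR, 0 of the 3 were called in any comparison. As a description, DESeq2 passed 1 of the 3 in the other rightward mutants (*Vgll2*, higher on the left), beside 0.754% of all genes.

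Of 22 genes listed as YAP and TAZ targets, 20 were not among the 10. In the heterotaxy cluster 16 of these 20 had a mean above 0 and 4 below, with a median of 0.10 (0.012 for all genes), against 0.02 in the wild types, 0.12 in the inverted mutants and -0.12 in the other rightward mutants. *Ccn2*, a matricellular protein and the classical YAP target, had the largest mean, 0.51 ± 0.38, right higher in 5 of 6 embryos, at median levels of 1.44 (left) and 1.75 CPM (right). *F3*, the coagulation tissue factor, had 0.32 ± 0.20, right higher in 6 of 6. *Foxf2* and *Nt5e* had the smallest, -0.36 ± 0.38 and -0.31 ± 0.74 (SD, n = 6 each). *F3* and *Ccdc80* were on the right in all 6 embryos, 2 of the 20, where 2.06% of all genes were.

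In the inverted mutants, 2 of the 22 targets were called by edgeR, beside 1.81% of all genes. Both were higher on the right in 5 of 5 embryos, as were 7.34% of all genes. *Ankrd1*, a stretch-responsive gene of heart muscle, had a log2 fold change of 1.30 (SE 0.16, adjusted p = 0.00709), and *Tgfb2*, a transforming growth factor, had 0.53 (SE 0.07, adjusted p = 0.0106). In the same embryos the summed heart tube muscle markers were right higher in 5 of 5, with a median log2 ratio of 1.01 and a lowest of 0.61, and their part in the changes of both genes was not tested. Their heterotaxy mean log2 ratios were 0.13 ± 1.03 and 0.03 ± 0.30 (SD, n = 6). DESeq2 called 4 higher and 2 lower on the right there, beside 6.88% of all genes. In the wild types and the rightward mutants, 0 of the 22 were called by either tool.

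**Figure D5:**
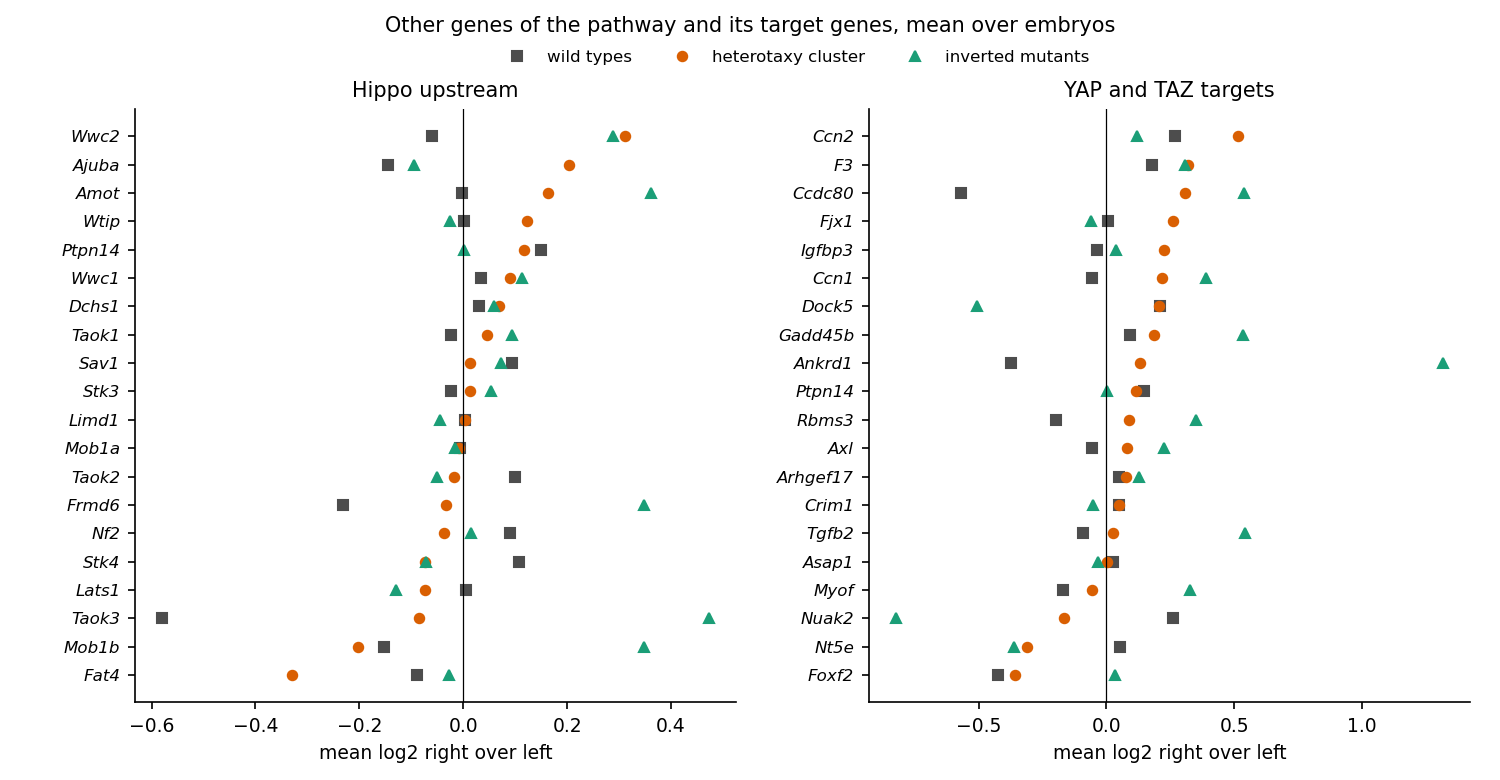
Mean log2 ratio, right over left, in wild types (squares), the heterotaxy cluster (circles) and inverted mutants (triangles) for 20 upstream genes (left panel) and the 20 target genes outside the 10 (right panel), each ordered by the heterotaxy mean. The upstream circles lie about evenly on either side of 0, and 16 of the 20 target circles lie above it.

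The genes whose log2 ratio most resembled that of *Vgll3* over the 21 embryos were *Postn*, *Wnt6*, *Hand1*, *Lrp2* and *Msx2*, with Pearson's r of 0.81, 0.79, 0.78, 0.78 and 0.76 (Spearman's rho 0.81, 0.77, 0.88, 0.86 and 0.81), among 11214 genes with a mean of at least 5 CPM. Without the embryos 2_2 and 22_4, whose *Vgll3* ratios were farthest from the median, r was 0.80, 0.74, 0.89, 0.74 and 0.80. The points share libraries and the groups differ, so these are descriptions. All 5 had a mean below 0 in the wild types (between -1.25 and -0.30) and above 0 in the heterotaxy cluster (between 0.09 and 0.43) and the inverted mutants (between 0.17 and 0.61).

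Among the 10 genes themselves, the log2 ratios of *Tead2* and *Tead3* went together most closely over the 21 embryos by Pearson's r (0.73, rho 0.53), and those of *Wwtr1* and *Vgll3* least (-0.32, rho -0.28). By Spearman's rho the order was another, with *Tead1* and *Tead3* closest (0.69, r 0.55) and *Wwtr1* and *Tead4* lowest (-0.32, r -0.30).

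Markers of the tissues that a dissected heart field can hold varied between sides. The log2 ratio of *Vgll3* had an r between -0.48 and 0.44 with the summed ratios of 10 marker lists over the 21 embryos, lowest for paraxial mesoderm and highest for heart tube muscle, followed by yolk sac visceral endoderm (0.43). By rho the range was wider, from -0.62 for paraxial mesoderm to 0.55 for yolk sac visceral endoderm, with heart tube muscle at 0.40. The 7 muscle markers summed to between 885 and 3323 CPM in the samples of the heterotaxy cluster, between 594 and 2893 CPM in the wild types and between 843 and 3129 CPM in the inverted mutants, and were right higher in 3 of 6, 3 of 5 and 5 of 5 embryos. The 5 yolk sac markers summed to between 131 and 977, 57.6 and 951, and 44.3 and 1234 CPM in these groups, right higher in 3 of 6, 1 of 5 and 3 of 5 embryos, and in 0 of 5 other rightward mutants. The 6 paraxial mesoderm markers summed to between 30.3 and 173, 40.4 and 310, and 69.7 and 188 CPM, right higher in 2 of 6, 4 of 5 and 1 of 5. None of the markers in these 3 lists was at 0 in any library. The 6 second heart field markers were present in every library, between 175 and 459 CPM, and the labels name only the heart field. They were right higher in 4 of 6 heterotaxy embryos, 3 of 5 wild types, 1 of 5 other rightward mutants and 5 of 5 inverted mutants. The 7 foregut endoderm markers, of which *Nkx2-1* was at 0 in some library, were right higher in 5 of 6 heterotaxy embryos (median log2 ratio 0.15), 2 of 5 wild types (-0.01), 1 of 5 other rightward mutants (-0.14) and 3 of 5 inverted mutants (0.22), with an r of 0.35 and a rho of 0.51 with *Vgll3*. The 5 sinus venosus and proepicardium markers and the 6 endothelium markers were each right higher in 5 of 5 inverted mutants and 1 of 5 wild types, and in 2 of 6 and 1 of 6 heterotaxy embryos. The 6 neural tube markers, of which *Sox1* was at 0 in some library, were left higher in 5 of 5 inverted mutants (median log2 ratio -0.69, from -1.30 to -0.33), and right higher in 4 of 6 heterotaxy embryos, 2 of 5 wild types and 2 of 5 other rightward mutants. The 5 neural crest markers, of which *Foxd3* was at 0 in some library, were right higher in 1 of 5 inverted mutants (median -0.30), 2 of 6 heterotaxy embryos, 3 of 5 wild types and 4 of 5 other rightward mutants. The part of these tissues in the ratios of the 10 genes was not tested.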

How the data were processed

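RNA of the left and right heart field of 21 embryos was sequenced with a low-input poly-A protocol (42 libraries). The authors trimmed adapters, removed duplicates, used STAR for alignment to GRCm39 and featureCounts for the counts per gene (Subread 2.0.6, per the submitters' processing notes), and deposited raw counts. The strand setting of the counting is not given in the sources used here, so reads of overlapping genes on opposite strands may not be separated.

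Of 56953 Ensembl identifiers, 56310 were matched to symbols. The deposited counts were tested with edgeR 4.0.16 (R 4.3.3): filterByExpr (at least 5 counts, 10 in total, with large.n of 50 and min.prop of 0.2), TMM, quasi-likelihood test and Benjamini-Hochberg adjustment over all genes kept. Both samples of an embryo carry the same embryo in the labels, so right over left was fitted with a block for each embryo, differences in asymmetry as interactions over all 42 libraries, and levels on each side with group and sex. The log2 ratio per embryo is the difference of log2 CPM with a prior count of 2. DESeq2 1.42.0 with local dispersion fit, library size alone, no filter, no block, no sex term, a prior count of 0.5 and each embryo left out were the alternatives. The edgeR fits of right over left in the wild types, rightward mutants, inverted mutants and heterotaxy cluster were tested on simulated data. The other fits were not. Gene models were those of GENCODE vM39, and promoters were read from the GRCm39 genome around the canonical start.

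The members and lists were chosen with earlier results of these data known. Named genes are the 10 members, list genes with an adjusted p under 0.05 in a test of labelled groups, the extremes of each list in the heterotaxy cluster, and the 5 genes most like *Vgll3*. The comparison of inverted mutants with wild types, the exact tests and the fits without 22_4, 2_2 and 15_5 were chosen after the values were seen.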

Additional observations from a re-analysis of the deposited data

Results flagged for a closer look

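A single embryo lay far from the others of its group in 12 of 120 groups of values (Dixon's criterion, by which chance gives about 1 in 20). For *Vgll3* these were the log2 ratio of the wild type 22_4 (-3.73) and of the other rightward mutant 2_2 (-4.05), the left sample of 22_4 (43.0 CPM), and both samples of the heterotaxy embryo 15_5 (left 37.7 CPM, right 47.6 CPM). For *Tead3* they were the log2 ratio (-0.24) and left sample (18.8 CPM) of the heterotaxy embryo 3_7 and the right sample of the wild type 10_1 (8.39 CPM). The others were the log2 ratio of *Amotl1* in the wild type 10_1 (-0.25), the left sample of the inverted mutant 4_6 for *Lats2* (19.1 CPM), its right sample for *Yap1* (44.4 CPM), and the right sample of 15_5 for *Tead2* (447 CPM).

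*Vgll3* was higher on the left in every wild type (mean log2 ratio -1.58) and on the right in every embryo of the heterotaxy cluster (0.83). That difference was not tested, because the cluster was formed from ratios in these libraries.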

How the results depend on the processing

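Of 197 recomputed counts of called genes among the 10, 189 stayed within 1.5 times the reported count, and the other counts rose from 0. In the inverted mutants 1 gene (*Vgll3*) was called by DESeq2, beside 6.88% of all genes, and between 0 and 1 with an embryo left out (1 without 4_6, where 0.819% of all genes were). For the asymmetry of inverted mutants against wild types, 2 (*Tead4* and *Vgll3*) were called by DESeq2, beside 3.18% of all genes, and 1 (*Vgll3*) without 22_4, 2_2 and 15_5 (2.64%). In the heterotaxy cluster, where the values chose the genes and a call supports nothing, the fit passed 2 by DESeq2 (0.333% of all genes), 1 with no filter (0.00990%), 1 without those 3 embryos (0.325%), and between 0 and 1 with an embryo left out (1 without 15_5, the same fit). The causes were not tested. Without the replicate block, 0 of the 10 were called in each of the 8 paired comparisons, and *Vgll3* was at 0.53 (SE 0.82) in the heterotaxy cluster.

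Of 1970 recomputed log2 fold changes and differences, 122 had the other sign than the reported value, in 43 of 120 values, and 0 of these 122 were called by edgeR or DESeq2 at an adjusted p under 0.05. Of 420 recomputed mean ratios, 33 had the other sign. At 9 counts in its lowest library, *Vgll3* had the fewest reads of the 10 genes.

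With each embryo left out in turn, the log2 values that turned sign had these ranges. Right over left, wild types gave *Yap1* -0.056 to 0.073, *Tead1* -0.014 to 0.11, *Tead2* -0.019 to 0.064, *Tead3* -0.020 to 0.32 and *Amotl1* -0.060 to 0.017. Right over left, rightward mutants gave *Tead1* -0.061 to 0.051, *Tead4* -0.018 to 0.068 and *Vgll3* -0.0059 to 0.36. Right over left, inverted mutants gave *Tead2* -0.0017 to 0.023, *Lats2* -0.033 to 0.18, *Amotl1* -0.024 to 0.098 and *Amotl2* -0.14 to 0.0016. Right over left, heterotaxy cluster gave *Yap1* -0.0049 to 0.12. Right over left, other rightward mutants gave *Wwtr1* -0.039 to 0.15, *Amotl2* -0.0094 to 0.056 and *Tead2* -0.016 to 0.051. The asymmetry of inverted against rightward mutants gave *Amotl1* -0.076 to 0.046, *Tead3* -0.038 to 0.18 and *Lats2* -0.16 to 0.060. The asymmetry of rightward mutants against wild types gave *Tead1* -0.10 to 0.021, *Tead3* -0.26 to 0.087, *Yap1* -0.10 to 0.028 and *Tead2* -0.036 to 0.052. The left level of rightward mutants against wild types gave *Yap1* -0.044 to 0.13, *Tead1* -0.0035 to 0.18, *Tead2* -0.0031 to 0.061 and *Vgll3* -1.89 to 0.0031. The left level of inverted against rightward mutants gave *Lats2* -0.14 to 0.058, *Tead1* -0.057 to 0.067, *Yap1* -0.023 to 0.069 and *Amotl2* -0.0060 to 0.12. The right level of rightward mutants against wild types gave *Tead1* -0.058 to 0.12, *Tead3* -0.011 to 0.16, *Amotl2* -0.058 to 0.041, *Yap1* -0.052 to 0.014 and *Wwtr1* -0.076 to 0.020. The right level of inverted against rightward mutants gave *Tead2* -0.014 to 0.019, *Wwtr1* -0.076 to 0.0014, *Tead4* -0.082 to 0.10 and *Yap1* -0.079 to 0.0041. The asymmetry of inverted mutants against wild types gave *Tead2* -0.054 to 0.037 and *Tead3* -0.19 to 0.16.

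Other settings turned the sign of these values. The values with no replicate block were *Yap1* -0.0074 for right over left in wild types. The values without 22_4, 2_2 and 15_5 were *Tead1* -0.014, *Tead2* -0.019 and *Tead3* -0.020 for right over left in wild types, *Yap1* 0.028 and *Tead4* -0.049 for right over left in rightward mutants, *Tead1* 0.061 and *Tead3* 0.092 for the asymmetry of rightward mutants against wild types, *Yap1* -0.013 for the left level of rightward mutants against wild types, *Lats2* 0.0033 for the left level of inverted against rightward mutants, *Tead2* -0.030, *Wwtr1* 0.0072 and *Tead4* 0.077 for the right level of inverted against rightward mutants, and *Tead2* 0.014 for the asymmetry of inverted mutants against wild types. The values by DESeq2 were *Tead1* -0.0015 for right over left in rightward mutants, *Amotl1* 0.00020 for the asymmetry of inverted against rightward mutants, and *Tead2* 0.0018 for the asymmetry of inverted mutants against wild types. The values with library size alone were *Tead1* -0.0058 for right over left in rightward mutants, *Tead2* -0.0011 for right over left in inverted mutants, and *Tead3* -0.00042 for the asymmetry of inverted mutants against wild types. The values with no filter were *Tead1* -0.00043 for right over left in rightward mutants, *Amotl1* 0.0023 for the asymmetry of inverted against rightward mutants, and *Tead2* 0.016 for the asymmetry of inverted mutants against wild types. The values with no sex term were *Tead2* -0.0031 for the right level of inverted against rightward mutants.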
